A study of Mus musculus with 107 samples.

Results

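Polycomb repressive complex 2 (PRC2) chromatin contacts in which exactly 1 of the anchors lay in a PRC2 peak were examined, and what lay at the other, peak-free anchor was described. A contact was a row of the pooled PRC2 ChIA-PET interaction list of mouse embryonic stem (ES) cells with at least 6 paired-end tags (PETs), on chromosomes 1 to 19 or X, of which 1 anchor shared at least 1 bp with a row of the pooled PRC2 peak list. There were 13911 such single-peak contacts, 4.49% of the 309803 listed contacts and 31.1% of the 44699 with at least 6 PETs. For comparison, 8861 contacts of at least 6 PETs had a PRC2 peak at both anchors and 21927 had none. The contacts were chosen by their PETs and by PRC2 peak status, so PETs and PRC2 peaks are given below as descriptions, with no test.

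PRC2 is the enzyme complex that trimethylates lysine 27 of histone H3 (H3K27me3), with Ezh2 as its catalytic subunit and Suz12 and Eed as core partners, and in ES cells it sits at the CpG-rich promoters of silent developmental regulators. ChIA-PET pulls down chromatin with an antibody and ligates DNA ends held in the same complex, so that a pair of sequenced ends reports a contact. CTCF is a zinc finger DNA-binding protein at which cohesin-extruded chromatin loops stop, and RNA polymerase II (RNAPII) marks active promoters.

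The series maps PRC2-bound contacts and tests the removal of PRC2-bound elements in mouse ES cells. The contact and peak lists were pooled over 24 PRC2 ChIA-PET libraries of E14 ES cells, 11 with a Suz12, 7 with an Ezh2 and 6 with an Eed antibody, from sonicated chromatin of cells grown without feeders on gelatin in serum with leukemia inhibitory factor. CTCF, H3K27me3 and RNAPII peak lists came from the same E14 line, pooled over 2, 2 and 4 ChIP libraries and, for a second RNAPII list, 4 ChIA-PET libraries. A second line, B6NJ, was grown on irradiated mouse embryonic fibroblast feeders in serum with the kinase inhibitors PD0325901 and CHIR99021. Its parental cells carry no deletion. Clones chr9-F1 and chr9-G9 lack a PRC2-bound element at chr9:37451506-37461721, and clones chr7-D4 and chr7-F4 lack chr7:143440438-143450716 (mm10). Each clone is a single isolate. Clones chr3-C2, chr3-H7, chr2-D10 and chr2-G5, derived knockout lines whose labels name the chromosome and not the interval, entered the RNA fit with 3 libraries each, to share its estimate of spread. The parental, chr9 and chr7 lines, 5 in all, had 2 Ezh2 ChIA-PET libraries each, made from AluI-digested chromatin, and 3 RNA libraries each, except 2 for chr9-F1. E14 and B6NJ therefore differ in strain, feeders, medium and library chemistry at once, and these cannot be told apart. The pooled E14 lists hold no replicates, so shares from them carry 95% Wilson intervals that cover counting error only.

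Promoter windows of genes at the anchors show the sequence contrast described below. They run from 250 bases before to 50 bases after a start site, are RefSeq sequences of GRCm38.p6 given 5′ to 3′ on the gene's strand, and have CG dinucleotides in capitals. Wnt3a lies at the H3K27me3-marked peak anchor and Arf1 at the peak-free anchor of the same contact, and Olfr372 lies at the peak-free anchor of a stronger contact without H3K27me3. The choice of these windows was made with their values known. They lie at chr11:59290702-59291001 (minus strand), chr11:59228113-59228412 (minus strand) and chr8:72057410-72057709 (plus strand).
Wnt3a: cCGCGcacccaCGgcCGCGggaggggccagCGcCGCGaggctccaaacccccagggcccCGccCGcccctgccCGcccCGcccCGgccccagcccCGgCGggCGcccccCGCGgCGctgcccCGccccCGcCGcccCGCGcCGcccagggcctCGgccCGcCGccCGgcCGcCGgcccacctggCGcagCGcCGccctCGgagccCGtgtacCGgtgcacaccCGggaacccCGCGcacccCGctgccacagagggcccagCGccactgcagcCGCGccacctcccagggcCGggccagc
Arf1: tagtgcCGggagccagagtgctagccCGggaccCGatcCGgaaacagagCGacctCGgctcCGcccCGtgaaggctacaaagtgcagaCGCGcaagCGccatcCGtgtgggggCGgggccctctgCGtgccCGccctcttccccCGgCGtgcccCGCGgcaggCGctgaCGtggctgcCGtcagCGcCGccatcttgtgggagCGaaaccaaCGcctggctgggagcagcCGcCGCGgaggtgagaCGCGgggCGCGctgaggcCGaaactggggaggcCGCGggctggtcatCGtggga
Olfr372: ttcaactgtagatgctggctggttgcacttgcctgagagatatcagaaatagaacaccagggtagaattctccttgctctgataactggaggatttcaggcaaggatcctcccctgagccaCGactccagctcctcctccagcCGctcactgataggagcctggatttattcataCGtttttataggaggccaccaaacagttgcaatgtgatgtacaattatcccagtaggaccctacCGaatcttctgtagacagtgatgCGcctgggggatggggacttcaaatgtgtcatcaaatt
The Wnt3a window held 45 CG dinucleotides, the Arf1 window 37 and the Olfr372 window 5. Of the 3, only the Arf1 window held the CTCF core motif on either strand. The motif reads CC, any 3 bases, AG, any 2 bases and GGC, and its match was CCACAAGATGGC on the strand opposite to the one printed. That match shares its last 8 letters with a match to the YY1 core motif, so the same letters serve both. The window of another Arf1 start site at the same anchor, chr11:59228218-59228517, held 38 CG dinucleotides and no CTCF core motif.

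Most single-peak contacts ran to a handful of loci with extreme PRC2 signal. In 8088 of the 13911 contacts (58.1%), holding 87.2% of the PETs, the peak anchor carried a PRC2 peak of more than 100-fold enrichment over background, the fold being the authors' value for the peak. Such peaks were 60 of the 23415 PRC2 peaks, whose median fold was 2.33, and they fell at 16 distinct peak anchors. A single anchor, chr2:98660801-98669150, had 4373 contacts and 468691 PETs, 82.5% of all PETs of single-peak contacts, and its partners covered 67.7 Mb. Its PRC2 fold was 12514. The next was chr8:25225514-25228329 with 1606 contacts at a PRC2 fold of 12228. The anchors chr9:2999037-3004022 and chr9:3021178-3028455 had 814 and 722 contacts. Chromosome 9 held another at chr9:35304254-35306506 with 202 contacts. Others stood at chr6:103648013-103650228 with 171, chr14:19414783-19420599 with 124 and chr12:3108688-3110986 with 50. No other anchor reached 50 partners, and the highest below that had 17.

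None of the 8088 contacts had a protein-coding gene end or an RNAPII ChIP peak at the peak anchor, and all of them (100%) had an RNAPII ChIA-PET peak there, against 54.6% of the contacts at or under 100-fold. Counted by contact, H3K27me3 peaks lay at the peak anchor of 36.1%, against 38.8% in the rest. CTCF peaks lay there in 19.9%, against 15.2%, the 19.9% being the 1606 contacts of the chromosome 8 anchor. These contacts share 16 distinct peak anchors, so such shares do not count separate peaks. Of the anchors named above, only chr2:98660801-98669150, chr9:3021178-3028455 and chr6:103648013-103650228 held an H3K27me3 peak. Their H3K27me3 folds were 1.42, 1.60 and 1.56, below the list's median of 3.41. The chromosome 2 anchor had no CTCF peak. The same chromosome 2 anchor carried a fold of 10259 in the RNAPII ChIA-PET list, and that list held 57 peaks over 100-fold, against 0 in the CTCF, RNAPII ChIP and H3K27me3 lists. Partners were spread along the whole chromosome. The chromosome 8 anchor had 73.3 PETs per Mb within 5 Mb and 91.8 PETs per Mb at 60 to 80 Mb, with a range of 64.8 to 99.0 over all distance classes. The chromosome 2 anchor had 3283 PETs per Mb within 5 Mb and 1328 at 60 to 80 Mb. CTCF peaks lay in 8.51% (7.92 to 9.13) of the partners. Whether these extreme loci reflect repeated sequence or another property of the libraries was not tested, and the results below are given without them unless they are named.

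**Figure D1:**
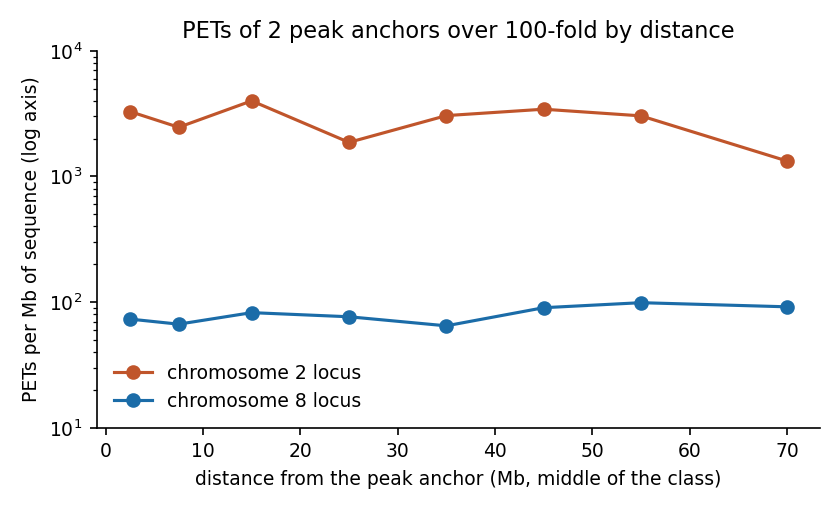
PETs per Mb of sequence (log axis) against the distance from the peak anchor in Mb, for the chromosome 2 and chromosome 8 anchors with PRC2 peaks over 100-fold; each point is a distance class. Neither line falls steadily with distance out to the class of 60 to 80 Mb; they run at 1328 to 3994 PETs per Mb for chromosome 2 and 64.8 to 99.0 for chromosome 8.

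The remaining 5823 contacts came in 3 kinds, set by the gap between the anchors and by H3K27me3 at the peak anchor. In 4511 of them the gap was under 20 kb, with a median of 0.755 kb, and in 1292 the anchors overlapped. There, 84.0% of the peak-free anchors lay within 5 kb of a PRC2 peak, so these contacts mostly joined a peak to its flank. Of the 1312 contacts with a gap of at least 20 kb, 517 had an H3K27me3 peak at the peak anchor and 795 had none. The first had a median of 7 PETs, a median gap of 102 kb and a median PRC2 fold of 13.7. The second had a median of 10 PETs, a median gap of 425 kb and a median PRC2 fold of 1.97. The limits of 100-fold and 20 kb and the split by H3K27me3 were chosen with the data in view.

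Over all 13911 contacts the peak-free anchor held a CTCF peak in 10.9% (10.3 to 11.4), an RNAPII ChIP peak in 4.94% (4.59 to 5.31), an RNAPII ChIA-PET peak in 16.1% (15.5 to 16.7) and an H3K27me3 peak in 0.683% (0.559 to 0.834). No peak of any of the 4 lists lay at 76.0% of them. H3K27me3 was thus at 95 of 13911 peak-free anchors, against 5178 peak anchors (37.2%) of the same contacts. The contacts were chosen for a PRC2 peak on 1 side only, and PRC2 makes this mark, so that contrast is not a separate result. Without the loci over 100-fold the peak-free shares were 14.1% for CTCF, 5.92% for RNAPII ChIP, 21.4% for RNAPII ChIA-PET and 1.46% for H3K27me3. Between chromosomes the CTCF share of these 5823 contacts ran from 6.91% on chromosome 12 to 19% on chromosome 2.

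CTCF set the long H3K27me3 contacts apart from the other kinds. Their peak-free anchor held a CTCF peak in 210 of 517 contacts, 40.6% (36.5 to 44.9), against 51 of 795, 6.42% (4.91 to 8.34), where the peak anchor lacked H3K27me3 and 12.4% (11.5 to 13.4) where the gap was under 20 kb. At gaps of 20 kb to 2 Mb the shares were 49.5% of 422 with H3K27me3 and 6.86% of 641 without. At the same gaps, 4.14% of the anchors of contacts with no PRC2 peak held CTCF, and 20.1% of those with a peak at both anchors. Of all 5-kb windows tiled along the chromosomes 6.99% held CTCF. Most anchors are shorter than that, and in 5 kb around each anchor midpoint the shares were 44.5% of the 517 and 9.43% of the 795. H3K27me3 itself lay at 3 of the 517 peak-free anchors (0.580%), beside 1.17% of all 5-kb windows, which are longer than most of these anchors. The 517 were chosen for the mark at the peak anchor and for no PRC2 peak at the other. As PRC2 makes the mark, its low share there is not a separate result. RNAPII ChIP peaks lay at 7.74% (5.73 to 10.4) of the 517 and 4.40% (3.18 to 6.06) of the 795 peak-free anchors. RNAPII ChIA-PET peaks ran the other way, at 20.5% (17.2 to 24.2) and 39.0% (35.7 to 42.4). Among the 19 chromosomes with at least 10 of the 517 contacts, the CTCF share lay between 21.1% on chromosome 12 and 61.1% on chromosome 19.

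**Figure D2:**
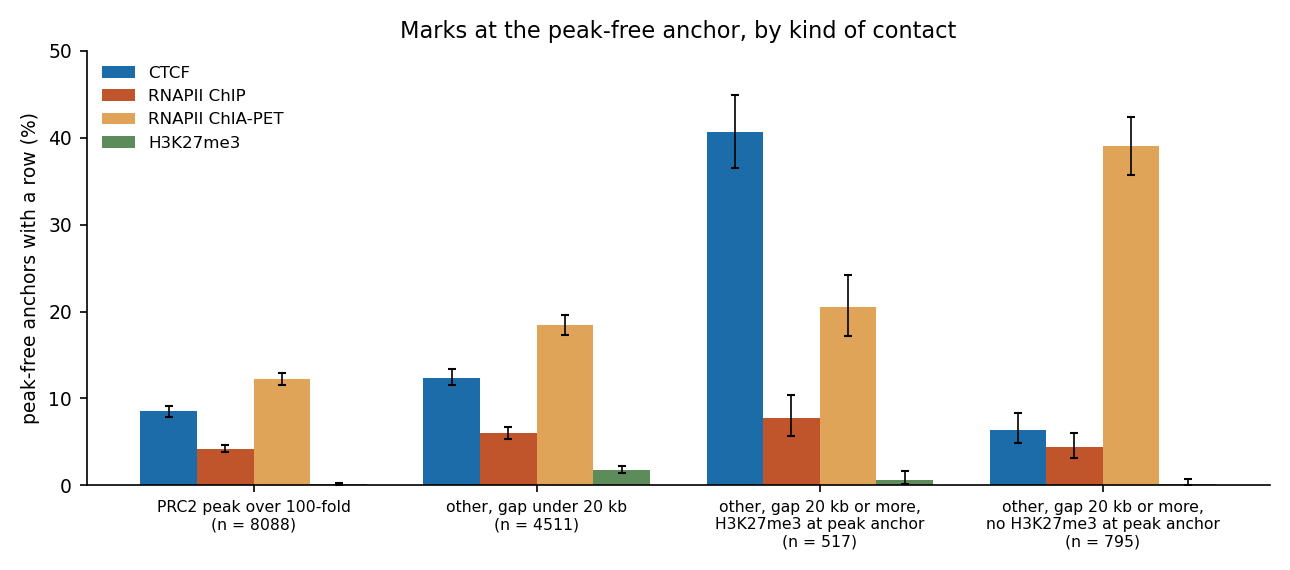
Percent of peak-free anchors with a CTCF, RNAPII ChIP, RNAPII ChIA-PET or H3K27me3 peak (bars, from 0) in the 4 kinds of single-peak contact, with 95% Wilson intervals for counting error. CTCF is highest in the 517 long contacts with H3K27me3 at the peak anchor (40.6%), and H3K27me3 is near 0 in all 4 kinds.

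The CTCF share varied with distance. In contacts with H3K27me3 it was 44.1% at gaps of 20 to 100 kb, 63.1% (89 of 141, 54.9 to 70.6) at 100 to 500 kb and 28.0% at 500 kb to 2 Mb. Beyond 2 Mb it was 1.05% of 95 contacts. In contacts without H3K27me3 the shares were 12.2% at 20 to 100 kb and 5.86% (15 of 256, 3.58 to 9.44) at 100 to 500 kb. At 500 kb to 2 Mb the share without H3K27me3 was 3.76%, and beyond 2 Mb it was 4.55% (7 of 154), above the 1.05% with H3K27me3. The share was thus higher with H3K27me3 in the 3 classes up to 2 Mb and not beyond.

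CTCF peaks were centred on these anchors. Around the 166 peak-free anchors of H3K27me3 contacts with gaps of 100 kb to 2 Mb, the central 5-kb bin held a CTCF peak in 62.7%. In the 32 bins from 25 to 100 kb away on both sides the share was 4.22% to 17.5%, with a median of 10.2%. The sides differed close to the anchor. The bin next to the centre on the side of the peak anchor held CTCF in 11.4%, and the next bin on the far side in 22.9%. Around the 469 anchors without H3K27me3 the central bin was at 6.18%, inside the outer range of 1.71% to 7.89%. The median fold of the CTCF peaks at the 210 anchors was 8.85, against 7.22 over all 36974 CTCF peaks, as the authors' values.

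**Figure D3:**
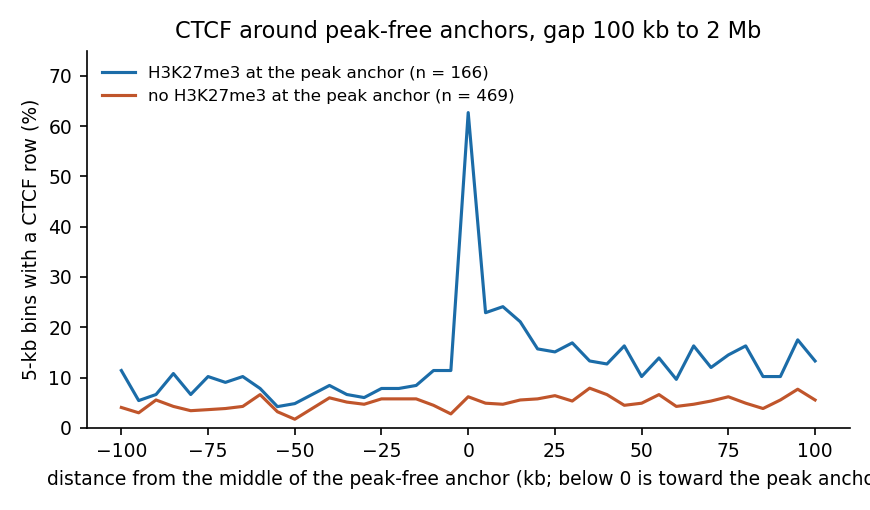
Percent of 5-kb bins with a CTCF peak against the distance from the middle of the peak-free anchor in kb (below 0 is toward the peak anchor), for contacts with gaps of 100 kb to 2 Mb. The line for H3K27me3 at the peak anchor (n = 166) rises to 62.7% in the central bin, and the line without H3K27me3 (n = 469) stays between 1.71% and 7.89% outside the centre.

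The share rose with the number of PETs, and this is where it was sensitive to the minimum. Among contacts with H3K27me3 and a gap of 20 kb to 2 Mb, it was 13.7% of 4387 contacts at 3 PETs, 20.2% at 4, 28.4% at 5, 44.2% at 6 to 9 and 66.3% (56.7 to 74.8) of 101 contacts at 10 or more. Without H3K27me3 it stayed between 5.61% and 13.9% over the same classes. Peak-free anchors lengthened over those classes, from a median of 1199 bp to 3960 bp with H3K27me3 and from 1006 bp to 3380 bp without. In windows fixed at 5 kb the shares with H3K27me3 still ran from 24.9% at 3 PETs to 66.3% at 10 or more, and those without from 19% to 7.22%. With the minimum lowered to 3 PETs and no upper limit on the gap, the contrast shrank to 8.54% of 17242 against 5.10% of 10092 contacts, and with a minimum of 10 PETs it was 60.9% of 110 against 5.61% of 428. Just outside the minimum, at 5 PETs, 18.8% of 665 H3K27me3 contacts with gaps of at least 20 kb held CTCF, and just inside, at 6 PETs, 31.5% of 216. The strength of the PRC2 peak moved the share less: with H3K27me3 it was 39.4% (13 of 33) under 5-fold, 47.4% at 5- to 15-fold and 53.9% above that. H3K27me3 and PRC2 fold could not be separated fully, as 25 of the contacts without H3K27me3 had a peak of 5- to 15-fold, 5 of them with CTCF, and 2 had one above that, neither with CTCF.

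**Figure D4:**
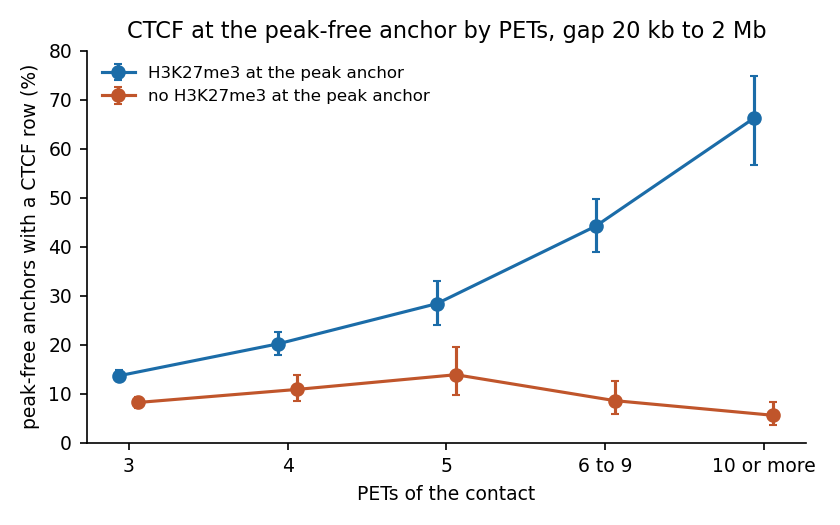
Percent of peak-free anchors with a CTCF peak against the PETs of the contact, for gaps of 20 kb to 2 Mb, with 95% Wilson intervals. The share rises from 13.7% at 3 PETs to 66.3% at 10 or more where the peak anchor holds H3K27me3, and lies between 5.61% and 13.9% where it does not.

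The H3K27me3 anchors held developmental regulators at higher shares than genes at large, and the peak-free anchors held too few genes for such a comparison. A protein-coding gene end lay at 49.5% of the 517 peak anchors and at 10.8% of the peak-free anchors. Genes at peak anchors included 14 of 69 homeobox genes outside Hox, 16 of 58 T-box, forkhead, GATA, Sox and bHLH regulators, 5 of 39 Hox genes and 8 of 41 signalling ligands and antagonists, beside 1.03% of all 21631 protein-coding genes. At peak-free anchors the same lists had 1 (1.45%), 0, 0 and 0 members, beside 0.277% of all genes. With so low a share over all genes, these counts do not show that such genes were scarce there. The 1 member was Nkx2-2, a homeobox regulator of ventral neural tube and pancreas, in a 7-PET contact of 88.6 kb with its relative Nkx2-4. None of the 30 pluripotency genes, 46 ribosomal protein genes or 31 Polycomb subunits lay at either kind of anchor of these contacts. These lists were chosen with earlier results of the data known, and H3K27me3 anchors are where such genes are known to lie.

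The strongest long contacts with H3K27me3 and CTCF had a gene on the peak side and, by the rule that picked them, CTCF as the sole mark on the other. The rule did not look at CTCF on the peak side, where the Kcnk9 and Gdnf anchors held a CTCF peak too. Of the 517 contacts, 21.9% had CTCF at the peak anchor, and 77 contacts had it at both anchors. Kcnk9, a potassium channel gene, was joined over 468 kb by 50 PETs to chr15:73018836-73026953 inside Trappc9, where CTCF had a fold of 12.3. Gdnf, a neurotrophic factor needed for kidney and enteric neuron development, was joined over 345 kb by 42 PETs to chr15:7457883-7464386, with a CTCF fold of 11.9. Foxf1, a forkhead regulator of lateral mesoderm, was joined over 175 kb by 33 PETs to chr8:120892371-120903160. Egr3, an immediate early zinc finger gene, was joined by 27 PETs to an anchor inside Pebp4, and Foxb2, a forkhead gene, by 25 PETs to an anchor 66.1 kb away with a CTCF fold of 13.3. The Egr3 anchor had the most partners of the set, 6, of which 1 contact held CTCF. The Pax2, Ihh and Foxf1 anchors had 4 each. So did anchors with no named gene at chr5:26002986-26008573, chr12:18132810-18137145 and chr4:118546585-118549662.

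In the 10 strongest H3K27me3 contacts with a gene end at each anchor, the peak side held developmental regulators in some, such as Barx1, Wnt3a and Gata5, and other genes in the rest. Among the rest, Grin1, Lrrc26 and Tmem210 were joined by 9 PETs to Tprn, at an anchor with RNAPII and no CTCF. Barx1, a homeobox gene of stomach and tooth, was joined by 20 PETs over 128 kb to Phf2, a histone demethylase gene, at a CTCF peak. Lfng, which encodes a glycosyltransferase acting on Notch, was joined by 16 PETs to Grifin, with both CTCF and RNAPII at the Grifin anchor. Wnt3a, a ligand of axis formation, was joined by 12 PETs over 55.5 kb to Arf1, a Golgi GTPase gene, and Gata5, a cardiac and endodermal regulator, by 12 PETs to Cables2 and Rbbp8nl. Wnt5b was joined by 10 PETs to Fbxl14, an F-box gene, at an anchor with RNAPII and no CTCF. That anchor also overlapped the span of Wnt5b, so both anchors touched Wnt5b. Barhl1, a neuronal homeobox gene, was joined by 8 PETs over 133 kb to Cfap77 at a CTCF fold of 27.3. A pair of contacts joined Pcdhb8 to Pcdhb11 (24 PETs) and to Pcdhb3 (16 PETs), neighbours in the clustered protocadherins, at the same CTCF peak. The peak anchors of both contacts held CTCF too. The 3 H3K27me3-positive peak-free anchors were at chr5:74951709-74953435, chr11:82954441-82957724 inside Slfn5 and chr2:75588853-75590739, the last joined over 881 kb to Hoxd8 and also holding CTCF.

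RNA was read in the 3 parental B6NJ libraries, which are not the cells of the contact map. Arf1 had 373, 376 and 386 CPM (gene counts scaled to each library's total) and Wnt3a 1.5, 1.43 and 1.77. Fbxl14 had 51.4, 51.4 and 49.6 CPM, and Wnt5b 3.13, 3.74 and 3.32. Barx1 was at 0.330 to 0.468 CPM and Phf2 at 18.3 to 22.1. Of the 60 genes with an end at the peak-free anchors, 59 had counts and 62.7% of them reached 1 CPM in each parental library. Of the 223 genes at the H3K27me3 peak anchors, 219 had counts and 33.8% to 35.6% reached 1 CPM, against 58.4% to 58.7% of all protein-coding genes. CPM is not corrected for gene length, so these are shares of genes detected, not levels compared between genes. ES cell genes were detected in the 14 parental, chr9 and chr7 libraries (Pou5f1 at 966 to 1258 CPM, Nanog at 449.7 to 1212).

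Among the 795 long contacts without H3K27me3, some gene families recurred, though most contacts had no member of the families counted. Zinc finger genes with Zfp symbols, or Rex2, had a member at an anchor in 143 contacts (18%), of which 69 had a member at both anchors. The immunoglobulin heavy chain locus on chromosome 12 held both anchors of 104 contacts (13.1%), and the Skint genes of skin T cell selection both anchors of 22. In the 517 H3K27me3 contacts the same families had 8, 0 and 0. The clustered protocadherins ran the other way, with a member in 7 of the 517 contacts (1.35%) and in 1 of the 795 (0.126%). The strongest gene pairs were Desi2 with Catspere2 at 151 PETs, Skint5 with Skint6 at 143, Olfr372 with Olfr373 at 100, the pheromone receptor genes Vmn2r114 with Vmn2r115 at 81, Zfp980 with Rex2 at 79 and the ribonuclease genes Rnaset2b with Rnaset2a at 62. Tuft1 and Cgn were joined by 39 PETs. Like Desi2 and Catspere2, they are not members of a shared family. Beside the contact of Desi2 with Catspere2, over 195 kb, lay one of Catspere2 with Catspere1, a gene of like name, with 45 PETs over 205 kb. The strongest with an RNAPII ChIP peak joined Sdc2, a heparan sulfate proteoglycan gene, over 135 kb to a peak of 2.38-fold with 226 PETs. Tags of near-identical copies can be placed at the wrong copy, so which copies were in contact is uncertain for the family members. Whether this also bears on the contact of Desi2 with Catspere2 was not tested.

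Promoter windows divided the same way. At the H3K27me3 peak anchors 162 windows had a median observed to expected CpG ratio of 0.794, and at their peak-free anchors 36 windows had 0.708, against 0.574 over all 21045 protein-coding windows. In the contacts without H3K27me3 the 43 windows at peak anchors were at 0.678 and the 39 at peak-free anchors at 0.348. The CTCF core motif spelled out above, sought on both strands, was in 7 of the 36 windows (19.4%) at the peak-free anchors of H3K27me3 contacts and in 9.98% of all windows. At H3K27me3 peak anchors it was in 13.6% of windows, and in contacts without H3K27me3 in 16.3% (7 of 43) at peak anchors and 5.13% (2 of 39) at peak-free anchors. The YY1 core motif, whose match shared letters with that of CTCF in the Arf1 window, was in 2 of the same 36 windows (5.56%). It was in 0 of the 162 windows at H3K27me3 peak anchors and in 0.893% of all windows. The 36 windows belong to 33 genes, so some genes count more than once. These windows are few, and a match is not a binding site.

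The Ezh2 ChIA-PET libraries of the B6NJ lines offered a second look at the same contacts, with 1 limit that sets the result. Every interaction in all 10 deposited lists (4734 to 9354 per library) had both anchors in an E14 PRC2 peak. A single-peak contact could therefore be found again only where an anchor of the library reached from the peak-free anchor to a peak. A contact counted as found when 1 interaction had an anchor overlapping each of its anchors. Single-peak contacts were found at 1.54% to 9.58% (median 6.40%) per library, contacts with a peak at both anchors at 27.1% to 45.2% and contacts with none at 0.0547% to 2.73%. That order follows from how the lists were built and is not tested. Contacts of the loci over 100-fold were found in no library (0 of 8088 in each), and interactions touching those peaks were 0.0543% to 0.225% of the lists. The 8088 contacts share 16 distinct peak anchors and are not separate trials, so no upper limit is given.

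Within single-peak contacts, and under the same limit, those with CTCF at the peak-free anchor were found more often. Over all 13911 contacts the share found was 10.8% ± 5.02 (SD over 10 libraries) with CTCF and 5.51% ± 2.91 without, a difference of 5.32 ± 2.22 percentage points, higher in 10 of 10 libraries (exact permutation by sign flips, two-sided, adjusted p = 0.00244 over 5 comparisons). Contacts with H3K27me3 at the peak-free anchor were found at 17.7% ± 8.36 against 6.01% ± 3.10, higher in 10 of 10 libraries (exact permutation, adjusted p = 0.00244), but that difference was 1.35 points with adjusted p = 0.201 in the same exact permutation when peak-free anchors within 5 kb of a PRC2 peak were left out, and 5.30 points, higher in 9 of 10 libraries, without the loci over 100-fold (exact permutation, adjusted p = 0.00488). For RNAPII ChIP at the peak-free anchor the shares were 6.97% ± 3.57 and 6.04% ± 3.12, higher in 9 of 10 libraries (exact permutation, adjusted p = 0.00977), and without the loci over 100-fold the difference turned to -0.700 points (adjusted p = 0.244 in the same exact permutation), whereas at gaps of 20 kb to 2 Mb it was 5.36 points (exact permutation, adjusted p = 0.00244). For CTCF it was 6.23 points without those loci (exact permutation, adjusted p = 0.00326) and 17 points, over 264 contacts with CTCF and 1127 without, at gaps of 20 kb to 2 Mb (exact permutation, adjusted p = 0.00244). The 2 groups differ in H3K27me3 at the peak anchor. Outside the loci over 100-fold, 209 contacts with CTCF and 213 without had it at these gaps. Among those the difference was 5.66 points.

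Among contacts with gaps of at least 20 kb, contacts with H3K27me3 at the peak anchor were found more often, though most of them were not found in any given library. With it, the lowest, median and highest share per library were 7.16%, 17.8% and 30.8%, and without it 0%, 0.189% and 0.629%, so the 10 libraries did not overlap. The difference was 18.9 ± 8.62 percentage points, higher in 10 of 10 libraries (exact permutation, p = 0.00195, the smallest that 10 sign flips can give; adjusted p = 0.00195 over 5 comparisons added after the data were seen). The median PRC2 fold of these groups was 13.7 and 1.97, as above, and its part in the difference was not tested. The limit given above holds for every share in this paragraph. As every listed interaction had a peak at both anchors, a share counts contacts whose peak-free anchor was reached by a library anchor in a peak. The tests compare such shares and cannot show how often the contacts themselves recurred. Within the 517 H3K27me3 contacts the 210 with CTCF were found at 10%, 25% and 41.9% (lowest, median, highest) and the 307 without at 5.21%, 14.2% and 23.1%. That difference was 11.8 ± 5.73 points, higher in 10 of 10 libraries (exact permutation, adjusted p = 0.00195). The ranges of both groups overlap between libraries, and it is within each library that CTCF contacts were higher. Contacts beyond 2 Mb made up 0.476% of those with CTCF and 30.6% of those without, and within gaps of 20 kb to 2 Mb the difference was 5.66 points (higher in 9 of 10 libraries, exact permutation, adjusted p = 0.00391). With peak-free anchors more than 5 kb from any PRC2 peak it was 12.4 ± 6.37 points, higher in 10 of 10 libraries. The 210 peak-free anchors with CTCF had a median length of 2967 bp and the 307 without had 2092 bp. A longer anchor is overlapped more easily. With each anchor replaced by a window of 5 kb, the difference between contacts with and without CTCF was 11.8 points. Replicate 1 of the chr9-F1 Ezh2 libraries carries the parental line's cell type label against its own title, which was followed here. With the mean of each of the 5 lines as the unit, no comparison could go below p = 0.0625. The labels do not say whether replicates are separate cultures, so the p-values measure the spread between these libraries.

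**Figure D5:**
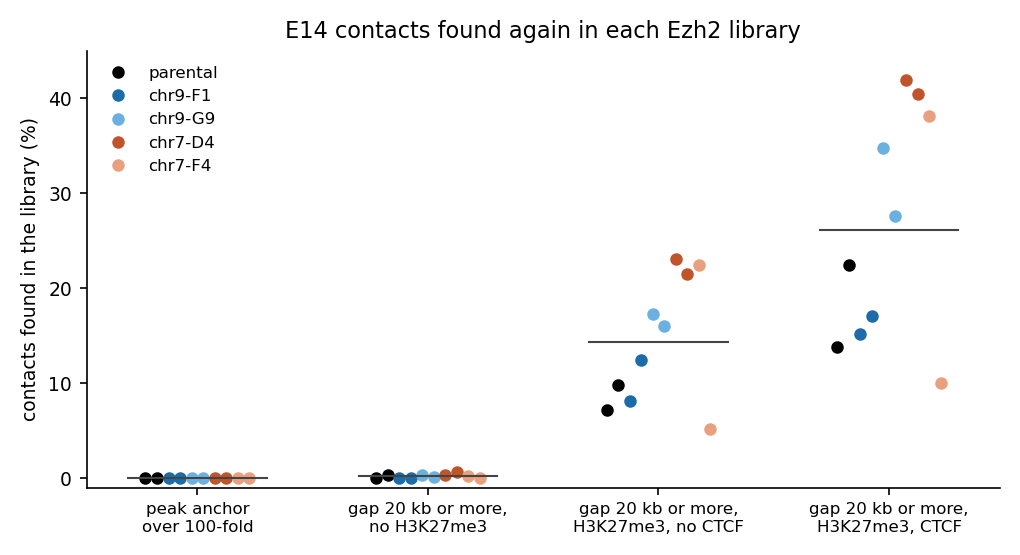
Percent of E14 contacts found again in each of the 10 Ezh2 libraries of B6NJ (points, coloured by line; horizontal lines are means) for 4 kinds of single-peak contact. Contacts over 100-fold are at 0 and those without H3K27me3 at or under 0.629% in every library, and those with H3K27me3 and CTCF range from 10% to 41.9%.

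Of the 517 contacts, 206 were found in at least 1 library and 24 in all 10. The strongest of the 24 was chr18:11010505-11016049 with 42 PETs, followed by the contact of Emx1, a cortical homeobox gene, with an anchor in Sfxn5 (39 PETs), a contact of Pax2, a kidney and eye regulator, with a CTCF site 136 kb away (19 PETs), a contact of Ihh, a hedgehog ligand gene, with an anchor in Cfap65 (14 PETs) and a second Pax2 contact over 112 kb (12 PETs). The Wnt3a to Arf1 contact was found in 7 of 10 libraries, as was that of Foxf1. The Barx1 to Phf2 and Grin1 to Tprn contacts were found in 4, those of Gata5 and Foxb2 in 2, and those of Lfng and Egr3 in 1. The contacts of Kcnk9, Gdnf, Hoxd8, Wnt5b and Barhl1 and both of Pcdhb8 were found in 0 of 10.

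The deleted elements took part in few single-peak contacts. The chromosome 9 element had 1 of at least 6 PETs, of 19 PETs between overlapping anchors with no gene end at the peak-free side, and the chromosome 7 element had none, so no gene was at a linked peak-free anchor. At a minimum of 3 PETs there were 10 and 7 contacts, with Siae and Spa17 at a peak-free anchor of the chromosome 9 element (4 PETs, 151 kb) and Kcnq1 at one of the chromosome 7 element (5 PETs, 17.7 kb). In edgeR's quasi-likelihood test with Benjamini-Hochberg adjustment, 37.7% of all 19993 tested genes were called for the chr9 deletion (17.1% higher, 20.6% lower) and 63.3% for the chr7 deletion (27.6% higher, 35.7% lower), so single calls among 3 genes say little.

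Siae, a sialic acid esterase gene, had 16.7, 16.7 and 17.8 CPM in the parental libraries, 18.6 and 18.7 in chr9-F1 and 22.5, 23.6 and 22.8 in chr9-G9. All 5 clone libraries were above the parental ones, and the change was 0.20 ± 0.06 (log2, SE; edgeR adjusted p = 0.00617). Feeder RNA moved with it: the 10 fibroblast marker genes, Col1a1 among them, summed to 60.8 to 85.7 CPM in the parental, 86.5 to 124 in the chr9-F1 and 200 to 396 in the chr9-G9 libraries, all 10 above 0 in each of these. Their part in the Siae and Spa17 values was not tested. Spa17, a sperm protein gene, had 1.11, 1.2 and 1.08 CPM in the parental, 0.975 and 1.29 in chr9-F1 and 1.47, 1.38 and 1.61 in chr9-G9 libraries, with overlapping values and a change of 0.13 ± 0.22 (edgeR adjusted p = 0.697). Kcnq1, a potassium channel gene of the imprinted cluster that bears its name, had 0.263, 0.519 and 0.330 CPM in the parental, 0.888, 0.912 and 0.629 in chr7-D4 and 0.727, 0.919 and 0.920 in chr7-F4 libraries. The groups did not overlap, and the change was 1.19 ± 0.34 (edgeR adjusted p = 0.00286). The fibroblast sum was lower in these clones, at 43.4 to 49.5 CPM in chr7-D4 and 44.4 to 53.3 in chr7-F4, with 9 of the 10 genes above 0 in every library of each clone, and its part in the Kcnq1 value was not tested. The antisense RNA Kcnq1ot1 lies within Kcnq1, and no source used here says if the counting used strand, so reads of the pair cannot be told apart. The chr7 libraries held 41285110 to 53337815 gene counts and the parental ones 98224636 to 121612424, so effects of the deletion, of the clones and of library preparation cannot be told apart.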

How the data were processed

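Chromatin contacts were measured by ChIA-PET, peaks by ChIP-seq and ChIA-PET, and RNA by sequencing, all in mouse ES cells. PET counts per interaction were deposited by the authors as whole numbers from 3, called with ChiaSig per the file headers for the pooled E14 list; no caller is named in the sources used here for the 10 Ezh2 lists. Peak fold enrichment (a ratio to background) was made by the authors with MACS2 2.1.1.20160309 on mm10, per the submitters' processing notes. Gene counts were deposited as raw HTSeq 0.6.1 counts after HISAT2 2.1.0 and Trim Galore 0.4.0, per the submitters' processing notes; summary lines that name no gene were left out.

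From these files, anchors and peaks were joined at an overlap of at least 1 bp (Python 3.11.15, pandas 2.3.3). Contacts were divided at a PRC2 fold of 100 and a gap of 20 kb, and an end of a gene is either end of its RefSeq span. A contact was found again in an Ezh2 library when an interaction there overlapped each of its anchors. Library shares were compared by flipping signs of within-library differences (exact permutation, two-sided), with Benjamini-Hochberg adjustment over 5 comparisons. One-anchor against both- and no-anchor contacts were planned as tests and are given as descriptions, because the Ezh2 lists hold only interactions with a peak at both anchors. RNA was tested in edgeR 4.0.16 (quasi-likelihood, TMM, low counts filtered) on all 26 B6NJ libraries, with DESeq2 1.42.0 as an alternative, after a check on simulated data. Same-numbered RNA libraries did not deviate together (correlations of -0.06 to 0.03 over 26 pairs), so no replicate block was used. Depth ran from 39702669 to 127770540 gene counts per library.

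Contacts were named by PETs: the 10 highest with a gene end at each anchor, the 5 highest of each mark class, the 5 longest, the 5 with the most partners and the 5 found in the most libraries, over all contacts, without the loci over 100-fold and within the H3K27me3 set. Contacts of the loci over 100-fold that this names are given by locus only. Members, lists and this split were chosen with earlier results of these data known. The 12 RNA libraries of the chr3 and chr2 clones entered only the shared estimate of spread and the filter, and RNA of E14 cells was not used here. One contact that the naming rule picks is not reported here.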

Additional observations from a re-analysis of the deposited data

How the results depend on the processing

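In E14, the shares of peak-free anchors moved with nearly every choice. In the order CTCF, RNAPII ChIP, RNAPII ChIA-PET and H3K27me3 they were 10.2%, 4.44%, 14.2% and 0.288% with at least 50% of the mark's peak inside the anchor, 6.56%, 3.45%, 10.6% and 0.243% from 3 PETs, 12.5%, 5.19%, 18.7% and 1.18% from 10 PETs, 6.10%, 3.18%, 10.7% and 0.259% with the stronger 50% of peaks, 10.1%, 4.47%, 14.2% and 0.131% with no PRC2 peak within 5 kb, 10.1%, 4.44%, 14.9% and 0.149% at gaps of at least 20 kb, and 14.1%, 5.92%, 21.4% and 1.46% without the loci over 100-fold. In 5-kb windows they were 5.42% for RNAPII ChIP, 17.2% for RNAPII ChIA-PET and 1.43% for H3K27me3, and over merged anchors 12.2% for CTCF, 5.57% for RNAPII ChIP and 17.4% for RNAPII ChIA-PET. The cause was not tested.

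Among shares found again, RNAPII ChIP against none reversed to -0.0201 points at 6 to 9 PETs and to -0.700 without the loci over 100-fold. H3K27me3 at the peak-free anchor missed the threshold at 10.8 points (gaps of 20 kb to 2 Mb) and 1.35 points (no PRC2 peak within 5 kb), where 5 and 12 contacts had the mark. With line means, where no p can pass 0.05, the differences were 5.32 (CTCF), 0.931 (RNAPII ChIP), 11.7 (H3K27me3 at the peak-free anchor), 18.9 (H3K27me3 at the peak anchor) and 11.8 points (CTCF within the H3K27me3 set). Single-peak less both-anchor contacts differed by -37.2 points from 10 PETs and -12.7 at 6 to 9 PETs. Single-peak less no-anchor contacts differed by 7.16 points at gaps of 20 kb to 2 Mb, 2.11 with no PRC2 peak within 5 kb and 13.1 without the loci over 100-fold. Leaving out each library gave 5.00 to 5.67 points for CTCF, 0.792 to 1.10 for RNAPII ChIP, 10.7 to 12.6 for H3K27me3 at the peak-free anchor, 17.6 to 20.2 for H3K27me3 at the peak anchor, 11.1 to 12.6 for CTCF within the H3K27me3 set, -31.4 to -30.1 against both-anchor and 4.44 to 5.04 against no-anchor contacts.

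From 6 PETs no gene lay at an anchor linked to a deleted element, so the RNA alternatives gave no value there; from 3 PETs 1 gene was called for each deletion. With the replicate block, chosen after seeing the data for these genes, the log2 changes were 0.21 for Siae, 0.14 for Spa17 and 1.2 for Kcnq1, and no call changed. Leaving out each library gave 0.18 to 0.23, 0.01 to 0.22 and 0.99 to 1.51. Gene levels per length, and the alternatives to them, were not run, as no exon lengths were used here.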

Other observations

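The longest single-peak contacts outside the loci over 100-fold spanned most of a chromosome. The longest joined chr2:22735956-22736998 over 159 Mb to a peak of 19-fold with 6 PETs, and the next joined an anchor on chromosome 1 over 157 Mb to a peak of 21.6-fold inside Prox1, a homeobox gene, with 6 PETs. In all, 249 contacts had gaps over 2 Mb, and 8 of them (3.21%) held CTCF at the peak-free anchor. In the H3K27me3 set the 95 such anchors were short, with a median of 1001 bp, where those at gaps of 100 to 500 kb had 2802 bp.

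Some peak-free anchors met several peaks. The anchor with the end of Zfp985 met 10 distinct peak anchors with 241 PETs, none with H3K27me3, at genes that included Zfp978, Zfp980 and Rex2. The anchor with Pcdhb8 met 6, of which 3 contacts had H3K27me3 at the peak anchor. Within the H3K27me3 set, chr2:147303453-147309732, with CTCF, met 3 peak anchors, 1 of them with the end of Nkx2-2.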
